A study of Homo sapiens with 6 samples.

Results

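Interferon-stimulated antiviral genes are switched on in a cell when interferon signals that a virus may be near, and a set of 38 of them was compared between 3D and 2D culture of a lung cancer line. All 38 were found in a table of 60504 genes, each as 1 protein-coding entry chosen by its gene name, and all 38 passed the filter of 1 TPM (an abundance corrected for transcript length and scaled to a fixed total in each library) on the average over all 6 libraries, so all could be tested. RNA was measured in HCC827, an established human lung adenocarcinoma cell line whose growth is driven by a mutant epidermal growth factor receptor. The 3D group held 3 libraries of tumoroids grown for 12 to 16 days in drops of Matrigel, an extract of basement membrane, here the growth factor reduced kind. The 2D group held 3 libraries of monolayers grown in plastic flasks for 4 to 6 days. Both groups were fed the same serum-supplemented medium, and the labels name no interferon or virus treatment. Gel contact, culture time and the number of cells seeded (50000 in 3D, 1000000 in 2D) differed together with the geometry, so their effects cannot be told apart. Whether each library is its own culture is not stated, so the variation that the p-values rest on is that among the 6 samples and may be technical.

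Type I and type III interferons bind their receptors and activate the kinases JAK1 and TYK2, which phosphorylate STAT proteins. STAT2 then takes part with IRF9 in a complex named ISGF3, which binds a promoter sequence called the interferon-stimulated response element, or ISRE. The genes it switches on include sensors that detect viral RNA, further transcription factors, and effectors that block entry, translation, replication or release of a virus. Epithelial cells of the airway and lung are among the first to mount this response, and many tumour lines transcribe part of the set without added interferon.

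Over all tested genes the first principal component (52.7% of the variance) separated the cultures, with 3D replicate 3 at -22.7 nearer to 2D than the other 3D libraries at -42.9 and -48.6. On the second (19.5%), both libraries numbered 3 stood apart from the other 4, with -18.6 for 3D and -42.05 for 2D, against 3.99 to 25.6. Without both of them, 6 genes of the set were called higher in 3D (limma adjusted p under 0.05), and 16.3% of all tested genes.

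Most of the set lay higher in 3D, but the libraries of each culture differed widely from one another. Of the 38 genes, 8 were called higher in 3D (limma on log2(TPM + 1), Benjamini-Hochberg adjusted p under 0.05), or 21.1%, where 10.2% of all 15042 tested genes were called higher. None was called lower, where 2.12% of all tested genes were, and none was lower at an unadjusted p under 0.05, where 8.25% of all tested genes were. The genes called higher were IFIH1, DDX60, IFIT5, MX2, RSAD2, CMPK2, HERC5 and XAF1. Of these, RSAD2 and CMPK2 averaged under 1 TPM in 2D and passed the filter only through their 3D values, so a difference was built into their being tested. At an unadjusted p under 0.05, 25 of the 38 were higher, where 23.2% of all tested genes were. The median log2 fold change of the set was 0.96, beside 0.12 for all tested genes, and 37 of 38 values were above 0, as were 60.8% of all tested genes. In 16 genes every 3D library lay above every 2D library, which held for 27.3% of all tested genes; in no gene did every 3D library lie below, which held for 9.4%. The groups overlapped in the other 22 genes. In bulk RNA, fewer cells that express a gene and less RNA of it per cell cannot be told apart.

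The calls rested on single libraries more than the direction did. Without 2D replicate 2, 0 of the set were called higher (2.82% of all tested genes), although 13 were higher at an unadjusted p under 0.05. The counts were 1 without 3D replicate 2 (2.61% of all tested genes), 2 without 3D replicate 1 (2.44%) and 3 without 3D replicate 3 (10.7%). They were 6 without 2D replicate 1 (4.84%) and 6 without 2D replicate 3 (10.5%). Under 2 scalings that centre the typical gene, 5 (median ratios, 6.46% of all tested genes) and 5 (quantile normalization, 5.78%) were called, with DDX60, RSAD2 and HERC5 lost in both. Under those scalings the median of all tested genes moved to -0.0092 and -0.035. Relative to that median the set lay 0.84 higher on the TPM as deposited, 0.82 with median ratios and 0.86 with quantile normalization. Without the filter on low values 1 was called, IFIT5 (2.15% of all tested genes).

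**Figure D1:**
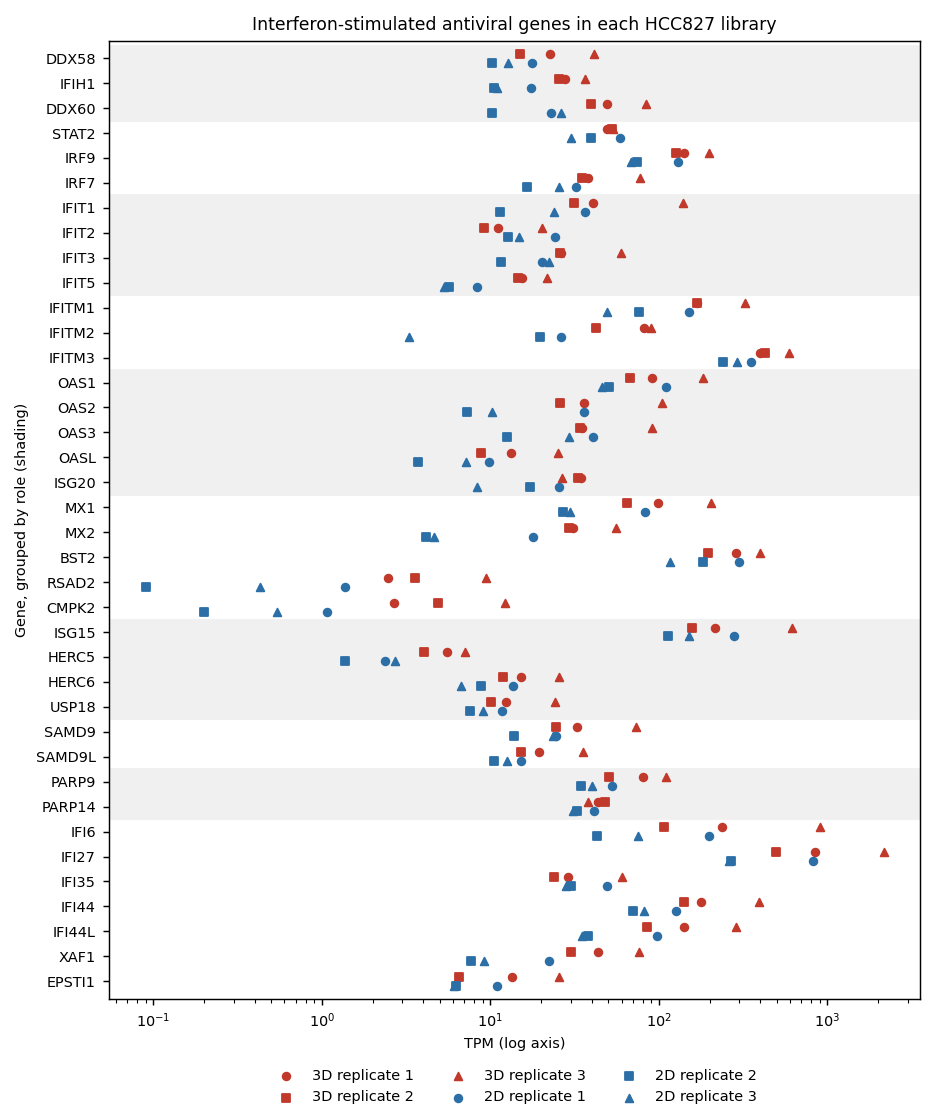
TPM of each of the 38 genes (rows, shaded by role) in the 3 libraries of 3D (red, upper row of each pair) and of 2D (blue, lower row), on a log axis, with a symbol for each replicate number. The red triangle, 3D replicate 3, is the highest 3D library in 36 genes, and the blue circle, 2D replicate 1, the highest 2D library in 35.

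The promoters of the set were searched for the response element and for a second interferon-related sequence. The ISRE was searched as GAAA, any 2 bases and a further GAAA, and the gamma-activated sequence as TTCNNNGAA, each on both strands from 250 bases before to 50 bases after the start site, in RefSeq promoters of GRCh38.p14. Of the set, 31 genes matched a promoter by symbol. The ISRE letters occurred in 20 of them (64.5%) and in 3.57% of all 35116 promoters of that length, and 14 of the set held more than 1 match. The gamma-activated letters occurred in 9 of 31 (29.03%) and in 7.66% of all promoters; in 4 of the set a match of the one overlapped a match of the other. The ISRE letters were found in 4 of 7 genes called higher in 3D (IFIH1, DDX60, IFIT5 and HERC5, not RSAD2, CMPK2 or XAF1) and in 16 of 24 genes that were not called. These counts hold for a gap of exactly 2 bases. Of the matched genes without the ISRE letters, RSAD2 and XAF1, which were called, hold GAAA, 1 base and a further GAAA. So do OAS1, DDX58 and IFI35, which were not called. That spacing was not counted, so a gene without a match may still hold a related element. A match is a description of the letters and not a measured site. MX2, IRF7, IFIT2, IFITM2, OAS2, OASL and USP18 were not matched. The stretches below hold the matches, in capitals, with 15 bases on each side; the first 4 genes were called higher in 3D, and the last 4 are the genes with a match in which 3D replicate 3 stood furthest above the other 3D libraries.
IFIT5 (chr10:89414508-89414588, plus strand, 3 matches): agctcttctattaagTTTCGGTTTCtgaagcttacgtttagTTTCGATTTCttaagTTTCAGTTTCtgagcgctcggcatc
IFIH1 (chr2:162318681-162318720, minus strand, 1 of 3 matches): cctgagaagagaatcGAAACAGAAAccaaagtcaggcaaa
DDX60 (chr4:168318781-168318855, minus strand, 2 matches): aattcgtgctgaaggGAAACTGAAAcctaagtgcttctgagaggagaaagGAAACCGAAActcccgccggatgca
HERC5 (chr4:88457030-88457069, plus strand, 1 of 3 matches): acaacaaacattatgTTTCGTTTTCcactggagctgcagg
IFI6 (chr1:27672261-27672322, minus strand, 2 of 3 matches): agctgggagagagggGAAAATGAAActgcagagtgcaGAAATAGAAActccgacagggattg
IFIT1 (chr10:89392492-89392544, plus strand, 2 matches): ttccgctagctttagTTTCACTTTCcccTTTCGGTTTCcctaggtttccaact
ISG15 (chr1:1013369-1013414, plus strand, 2 overlapping matches): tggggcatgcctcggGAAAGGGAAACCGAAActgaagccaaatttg
IFI27 (chr14:94110613-94110665, plus strand, 2 matches on opposite strands): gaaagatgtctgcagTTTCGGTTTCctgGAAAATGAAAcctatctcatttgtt
In IFIT5, the gene of the set whose call was lost least often, the 3 matches lie between positions -45 and 6, and the last of them crosses the start site. In IFI6 the 2 matches shown lie between positions -115 and -84 from the start site, and a further match begins at -156. The 2 matches of IFI27 lie on opposite strands, and those of ISG15 share letters.

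Of the 3 sensors of viral RNA, IFIH1 and DDX60 were called higher in 3D. IFIH1, which encodes MDA5, a helicase that detects long double-stranded RNA, had 27.7, 25.5 and 36.3 TPM in the 3D libraries, against 17.4, 10.6 and 10.98 TPM in the 2D libraries. The 3D libraries lay wholly above the 2D libraries, and the mean was 2.298-fold higher (log2 fold change 1.16, SE 0.22, limma adjusted p = 0.0186). DDX60, a helicase reported to promote RIG-I signalling, had 49.5, 39.7 and 84.2 TPM in the 3D libraries, against 22.8, 10.3 and 26.3 TPM in the 2D libraries. Its groups did not overlap either (log2 fold change 1.53, SE 0.38, limma adjusted p = 0.0418), and 2D replicate 2 was the low library of the 2D group. DDX58, which encodes RIG-I, the sensor of short RNA with a triphosphate end, ranged over 15.1 to 41.1 TPM in 3D and 10.2 to 17.8 TPM in 2D, and its log2 fold change of 0.82 (SE 0.35, limma adjusted p = 0.158) did not pass. For IFIH1, leaving out 3D replicate 1 (adjusted p = 0.0710), 3D replicate 2 (0.0579) or 2D replicate 2 (0.0763) ended the call, within a limma range of 0.0146 to 0.0763 over its alternatives. The call of DDX60 was kept without 2D replicate 3 and lost without any other single library (limma, adjusted p 0.00651 to 0.115 over its alternatives).

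None of the 3 transcription factors of the set was called. IRF9, the DNA-binding subunit of ISGF3, had 141, 126 and 197 TPM in the 3D libraries, against 129, 74.2 and 68.7 TPM in the 2D libraries. Only 2D replicate 1 reached into the 3D range, and the log2 fold change was 0.80 (SE 0.27, limma adjusted p = 0.0929). Part of its reads is uncertain, since 40.9% of the 75-base windows of its GENCODE 29 transcripts also occur in the overlapping gene AL136295.5, which was listed at 0.55 to 1.81 TPM in 3D and 0.40 to 0.66 TPM in 2D. STAT2, its partner in ISGF3, had 48.9, 52.4 and 53.2 TPM in the 3D libraries, against 59.1, 39.3 and 30.2 TPM in the 2D libraries. The 3D libraries were nearly level, with the smallest coefficient of variation (CV, the SD as a percentage of the mean) of the set in 3D at 4.42%, while the 2D libraries spread around them (log2 fold change 0.31, SE 0.23, limma adjusted p = 0.387). IRF7, which drives the interferon alpha genes, ranged over 35.1 to 77.4 TPM in 3D and 16.5 to 32.2 TPM in 2D with no overlap and a log2 fold change of 0.94 (SE 0.34, limma adjusted p = 0.110).

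The IFIT family binds foreign or unmodified RNA ends and blocks their translation. The 4 IFIT genes of the set lie near each other on chromosome 10 (chr10:89283694-89421001, GENCODE 29 on GRCh38). IFIT5 was the 1 of them that was called. IFIT5, which binds RNA with a triphosphate end, had 15.4, 14.6 and 21.7 TPM in the 3D libraries, against 8.28, 5.66 and 5.28 TPM in the 2D libraries. Every 3D library was above every 2D library, and both groups were tight for this set (17.2 ± 3.87 TPM in 3D and 6.41 ± 1.63 TPM in 2D, SD, n = 3 each; log2 fold change 1.301, SE 0.22, limma adjusted p = 0.0124). Its call was lost in 1 of 17 alternatives, without 2D replicate 2 (adjusted p = 0.0564, limma range 0.00903 to 0.0564). IFIT1, which binds capped RNA that lacks the methyl mark of host messages, had 40.6, 31.5 and 139 TPM in the 3D libraries, against 36.3, 11.4 and 23.98 TPM in the 2D libraries. The single high value was 3D replicate 3, 3.87 times the mean of the other 3D libraries, and 2D replicate 1 lay above 3D replicate 2 (log2 fold change 1.35, SE 0.59, limma adjusted p = 0.167). IFIT3, which stabilises IFIT1, had 26.2, 26.03 and 59.9 TPM in the 3D libraries, against 20.2, 11.6 and 22.4 TPM in the 2D libraries. The groups did not overlap, and the difference did not pass (log2 fold change 0.95, SE 0.36, limma adjusted p = 0.125). IFIT2, their partner, was the one gene of the set with a negative log2 fold change, at -0.35 (SE 0.32, limma adjusted p = 0.485), and ranged over 9.18 to 20.4 TPM in 3D and 12.8 to 24.1 TPM in 2D. In IFIT2, 6.89% of windows also occur in AL353751.1, and IFIT1, IFIT2 and IFIT3 all overlap LIPA on the opposite strand; the strand setting of the counting is not given in the sources used here.

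The IFITM proteins sit in membranes and hinder fusion of virus with cell, and the 3 IFITM genes of the set cluster at chr11:307631-327537. IFITM3, which acts in endosomes, had 396, 428 and 596 TPM in the 3D libraries, against 351, 242 and 289 TPM in the 2D libraries. IFITM1, found at the cell surface, had 169, 167 and 326 TPM in the 3D libraries, against 152, 75.7 and 49.3 TPM in the 2D libraries. In both genes the groups did not overlap, although the lowest 3D library and 2D replicate 1 were neighbours in level. Their log2 fold changes were 0.68 (SE 0.20, limma adjusted p = 0.0683) and 1.33 (SE 0.42, limma adjusted p = 0.0790). IFITM2 had the largest log2 fold change of the set, 2.35 (SE 0.66, limma adjusted p = 0.0571), with 42.3 to 89.97 TPM in 3D and 3.31 to 26.3 TPM in 2D. Its low end was 2D replicate 3. IFITM2 was called in 4 alternatives: without 2D replicate 3 (adjusted p = 0.0255), without both number 3 libraries, with a pseudocount of 5 and with the replicate number as a block (limma adjusted p 0.0234 to 0.164 over all its alternatives). Reads are hard to divide among these genes: 29.8% of the 75-base windows of IFITM1, 24.2% of IFITM2 and 8.05% of IFITM3 occur in transcripts of another gene, for IFITM1 and IFITM2 mainly each other.

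The OAS enzymes make short oligoadenylates that activate RNase L, which cuts viral and cellular RNA. None of the 4 OAS genes passed the test, and all 4 overlapped between the cultures. OAS1 had 91.03, 66.98 and 183 TPM in the 3D libraries, against 109.7, 50.5 and 45.9 TPM in the 2D libraries. OAS3 had 35, 33.9 and 91.2 TPM in the 3D libraries, against 40.6, 12.5 and 29.4 TPM in the 2D libraries. In both, 2D replicate 1 exceeded 3D replicates 1 and 2, and 3D replicate 3 stood above all other libraries. Their log2 fold changes were 0.70 (SE 0.43, limma adjusted p = 0.305) and 0.92 (SE 0.50, limma adjusted p = 0.246). OAS2 ranged over 25.7 to 105 TPM in 3D and 7.27 to 35.8 TPM in 2D (log2 fold change 1.64, SE 0.65, limma adjusted p = 0.136). OASL, a relative that lacks the enzyme activity and boosts RIG-I signalling, ranged over 8.82 to 25.2 TPM in 3D and 3.70 to 9.85 TPM in 2D (log2 fold change 1.05, SE 0.41, limma adjusted p = 0.134). ISG20, an exonuclease that degrades viral RNA, departed from this order. It ranged over 26.8 to 34.6 TPM in 3D and 8.31 to 25.5 TPM in 2D with no overlap, and 3D replicate 3 was its lowest 3D library (log2 fold change 0.97, SE 0.35, limma adjusted p = 0.107).

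Among the MX proteins and other effectors grouped with them, MX2, RSAD2 and CMPK2 were called and MX1 and BST2 were not. MX2, a GTPase that restricts nuclear entry of retroviruses, had 30.9, 29.5 and 55.9 TPM in the 3D libraries, against 17.97, 4.15 and 4.65 TPM in the 2D libraries. The mean was 4.34-fold higher in 3D (log2 fold change 2.22, SE 0.50, limma adjusted p = 0.0311), and 2D replicate 1 was about 4 times the other 2D libraries (4.08 times their mean). The call of MX2 was kept without 2D replicate 1 and lost without any other single library (limma, adjusted p 0.00747 to 0.106 over its alternatives). MX1, its neighbour on chromosome 21, which traps viral nucleocapsids, had 98.2, 65.1 and 204 TPM in the 3D libraries, against 82.2, 26.9 and 29.5 TPM in the 2D libraries. Here 2D replicate 1 lay above 3D replicate 2, and the difference did not pass (log2 fold change 1.41, SE 0.51, limma adjusted p = 0.110). BST2, or tetherin, which holds budding virus on the cell, had 288, 195 and 401 TPM in the 3D libraries, against 299.9, 183 and 117 TPM in the 2D libraries. The cultures overlapped (log2 fold change 0.60, SE 0.37, limma adjusted p = 0.307).

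RSAD2 and CMPK2 were the least abundant genes of the set and had the largest ratios of means. RSAD2 encodes viperin, a radical SAM enzyme that turns CTP into a chain-terminating nucleotide, and had 2.46, 3.57 and 9.43 TPM in the 3D libraries, against 1.38, 0.09 and 0.43 TPM in the 2D libraries. CMPK2, a mitochondrial nucleotide kinase, had 2.69, 4.89 and 12.3 TPM in the 3D libraries, against 1.08, 0.20 and 0.54 TPM in the 2D libraries. Both were higher in every 3D library than in any 2D library, 8.14-fold and 10.9-fold in the means, with log2 fold changes on the log2(TPM + 1) scale of 1.82 (SE 0.46, limma adjusted p = 0.0418) and 2.08 (SE 0.46, limma adjusted p = 0.0292). The means were 5.15 ± 3.75 TPM in 3D and 0.633 ± 0.669 TPM in 2D for RSAD2 and 6.62 ± 5.03 TPM in 3D and 0.607 ± 0.444 TPM in 2D for CMPK2 (SD, n = 3 each), so both passed the filter of 1 TPM only through 3D. Without that filter neither was called (limma adjusted p = 0.121 and 0.0934). In 2D, 4 of the 6 values of this pair were under 1 TPM, where TPM gives no record of how many reads lie behind a value. The pair is divergent and overlaps by 830 bases (chr2:6840570-6898239), where reads can be told apart only by strand. The call of RSAD2 was lost with any single library left out (limma, adjusted p 0.0347 to 0.136 over its alternatives). For CMPK2, leaving out 3D replicate 2 ended the call (0.0955), as did leaving out 2D replicate 1 (0.0572) or replicate 2 (0.105; limma adjusted p 0.0235 to 0.105 over its alternatives).

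The ISG15 pathway attaches a small ubiquitin-like protein to new viral and host proteins. ISG15 itself had 215, 158 and 615 TPM in the 3D libraries, against 278, 114 and 150.4 TPM in the 2D libraries. The second highest library was 2D replicate 1, above 3D replicates 1 and 2, and the log2 fold change of 0.71 (SE 0.52, limma adjusted p = 0.387) did not pass. HERC5, the main ligase for ISG15 in human cells, was called: it had 5.52, 4.02 and 7.08 TPM in the 3D libraries, against 2.37, 1.38 and 2.73 TPM in the 2D libraries, with no overlap (log2 fold change 1.05, SE 0.25, limma adjusted p = 0.0379). That call was kept without 2D replicate 3 and lost without any other single library (limma, adjusted p 0.0204 to 0.124 over its alternatives). HERC6, its paralog, had 15.3, 11.9 and 25.7 TPM in the 3D libraries, against 13.6, 8.76 and 6.71 TPM in the 2D libraries. The cultures overlapped in HERC6 (log2 fold change 0.79, SE 0.32, limma adjusted p = 0.142). USP18, which removes ISG15 and restrains the interferon receptor, ranged over 10.1 to 24.2 TPM in 3D and 7.58 to 11.7 TPM in 2D (log2 fold change 0.59, SE 0.31, limma adjusted p = 0.240). Part of its reads is uncertain, since 18.3% of its windows also occur in USP41. USP41 was listed at 0, 2.5 and 0.25 TPM in the 3D libraries, against 2.05, 0 and 2.82 TPM in the 2D libraries.

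Both SAMD9 and SAMD9L, neighbours on chromosome 7 that restrict poxviruses and inhibit translation, did not pass the test. SAMD9 had 32.6, 24.5 and 73.4 TPM in the 3D libraries, against 24.5, 13.7 and 23.5 TPM in the 2D libraries. SAMD9L had 19.4, 15.2 and 35.7 TPM in the 3D libraries, against 15.1, 10.6 and 12.6 TPM in the 2D libraries. In SAMD9 the groups overlapped by a hair, with 24.49 TPM in 3D replicate 2 and 24.50 TPM in 2D replicate 1. In SAMD9L they just cleared each other, with 15.17 TPM in 3D replicate 2 and 15.11 TPM in 2D replicate 1. The log2 fold changes were 0.93 (SE 0.40, limma adjusted p = 0.158) and 0.75 (SE 0.30, limma adjusted p = 0.134).

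The ADP-ribosyltransferases PARP9 and PARP14 also lie close together, on chromosome 3. PARP9, which works with the ubiquitin ligase DTX3L, had 79.95, 50.7 and 110.4 TPM in the 3D libraries, against 52.97, 34.5 and 39.9 TPM in the 2D libraries. PARP14 had 43.8, 47.6 and 37.98 TPM in the 3D libraries, against 41.5, 32.5 and 31.1 TPM in the 2D libraries. PARP9 overlapped between the cultures in 1 pair of libraries (log2 fold change 0.86, SE 0.29, limma adjusted p = 0.0896). PARP14, with overlap as well, had a small difference (log2 fold change 0.30, SE 0.16, limma adjusted p = 0.239), and its CV in 2D, 16.1%, was the smallest of the set there.

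Among the remaining induced genes the most abundant were IFI27 and IFI6, small hydrophobic proteins of mitochondrial and endoplasmic reticulum membranes. IFI27 had 847, 494 and 2153 TPM in the 3D libraries, against 823, 268 and 259.98 TPM in the 2D libraries. IFI6 had 238, 107 and 904 TPM in the 3D libraries, against 199, 42.8 and 74.98 TPM in the 2D libraries. In both, 3D replicate 3 stood far above every other library and 2D replicate 1 was close to 3D replicate 1, and differences of 1.32 (SE 0.61, limma adjusted p = 0.183) and 1.71 (SE 0.81, limma adjusted p = 0.191) did not pass. XAF1, an antagonist of the apoptosis inhibitor XIAP, was the only gene of this group that was called. It had 43.7, 30 and 76.1 TPM in the 3D libraries, against 22.3, 7.72 and 9.13 TPM in the 2D libraries. Its groups did not overlap (log2 fold change 1.90, SE 0.44, limma adjusted p = 0.0330), and its call was kept without 2D replicate 1 and lost without any other single library (limma, adjusted p 0.0198 to 0.114 over its alternatives). IFI44 ranged over 141 to 395 TPM in 3D and 70.3 to 126 TPM in 2D. IFI44L, its neighbour on chromosome 1, ranged over 85.6 to 288 TPM in 3D and 35.2 to 96.98 TPM in 2D. Only IFI44 was free of overlap, and the log2 fold changes were 1.24 (SE 0.39, limma adjusted p = 0.0760) and 1.56 (SE 0.51, limma adjusted p = 0.0840). EPSTI1 ranged over 6.52 to 25.6 TPM in 3D and 6.05 to 10.96 TPM in 2D (log2 fold change 0.75, SE 0.44, limma adjusted p = 0.283). IFI35, a partner of NMI, ranged over 23.96 to 60.3 TPM in 3D and 28.2 to 49.4 TPM in 2D. IFI35 had a log2 fold change of 0.00131 (SE 0.36), which turned negative with a pseudocount of 0.1, median ratios or quantile normalization, and in some fits with a library left out.

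**Figure D2:**
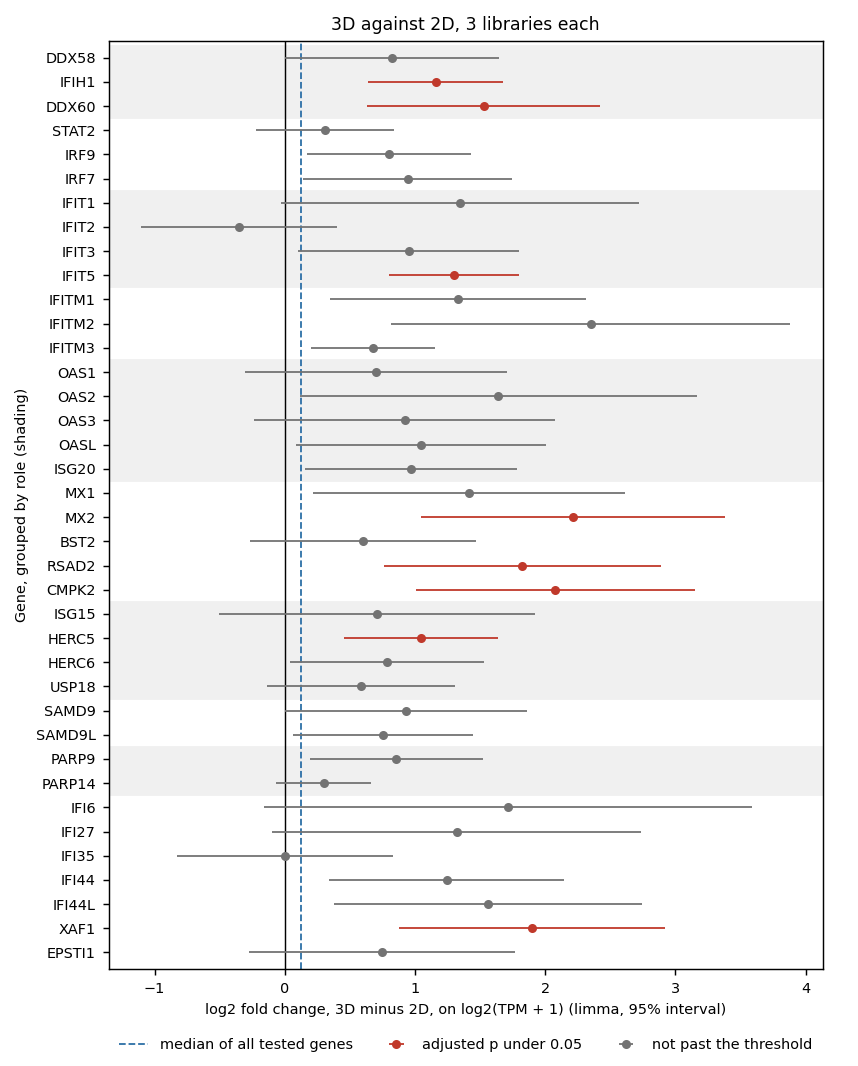
limma log2 fold change, 3D minus 2D, on log2(TPM + 1) for each gene, with its 95% interval; genes called at an adjusted p under 0.05 are in red and the dashed line is the median of all tested genes, 0.12. The 8 called genes lie between 1.05 and 2.22, and many uncalled genes have values as large with wider intervals.

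The spread within each culture followed the set as a whole. In 3D, replicate 3 was the highest library for 36 of 38 genes (ISG20 and PARP14 being the exceptions), where it was highest for 37.7% of all tested genes. The full order of replicate 3 above 1 above 2 held for 32 of 38, where it held for 19.8% of all tested genes. In 2D, replicate 1 was the highest for 35 (all but DDX60, IFIT3 and HERC5, in which replicate 3 was), where it was highest for 42.3% of all tested genes. Both held together for 33 genes, and for 14.4% of all tested genes. The replicates of a group carry no order, and these counts describe the libraries only.

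The size of these deviations was larger than for typical genes. 3D replicate 3 and 2D replicate 1 were picked because most of the set was highest in them. Values of the set above those of all tested genes follow in part from that choice. 3D replicate 3 stood at a median of 2.15 times the mean of 3D replicates 1 and 2 over the set, and 0.988 times over all tested genes. The ratio was highest in IFI6 (5.24), IFIT1 (3.87) and OAS2 (3.42), and lowest in ISG20 (0.789), PARP14 (0.831) and STAT2 (1.05). 2D replicate 1 stood at a median of 1.79 times the mean of 2D replicates 2 and 3, and 1.05 times over all tested genes, with the highest values in RSAD2 (5.31), MX2 (4.08) and OAS2 (4.08). The median CV of the set was 48.2% in 3D and 39.7% in 2D, beside 15.9% in 3D and 17.3% in 2D for all tested genes. Over the 38 genes the deviations of 3D replicate 3 and 2D replicate 1 from their group means were correlated with a Pearson r of 0.43 and a Spearman rho of 0.39; the points are genes that share these libraries, and over all tested genes r was -0.11.

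**Figure D3:**
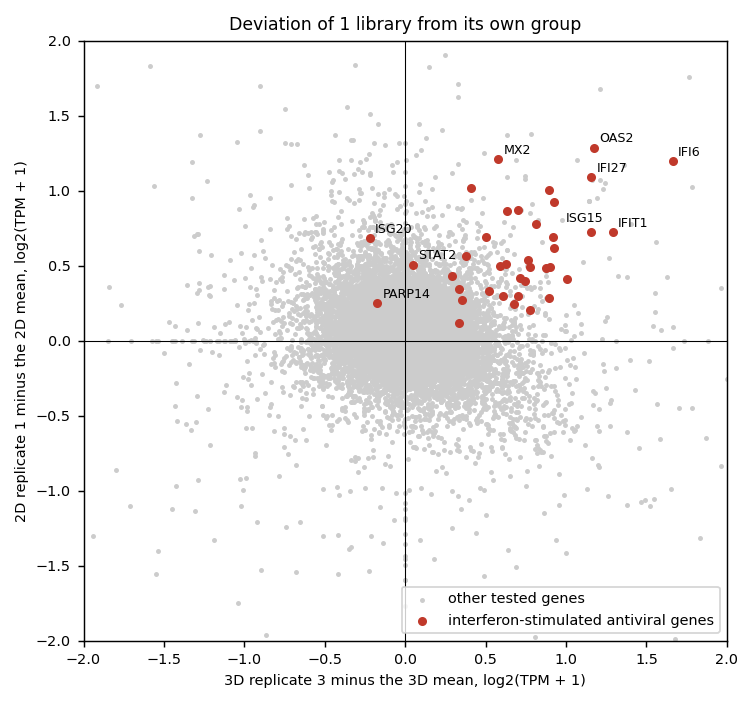
Deviation of 3D replicate 3 from the 3D mean (x axis) against that of 2D replicate 1 from the 2D mean (y axis), both on log2(TPM + 1), for the set (red) and the other tested genes (grey); 32 of the other genes lie outside the axes. Of the set, 36 of 38 lie in the upper right part, where 27.9% of all tested genes lie. The 2 libraries were picked because most of the set was highest in them, so this count follows in part from the choice.

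The summed level of the set shows the same overlap. It was 3611, 2689 and 7687 TPM in the 3D libraries, against 3288, 1532 and 1607 TPM in the 2D libraries. The library 2D replicate 1 lay between 3D replicates 2 and 1. In single genes, 2D replicate 1 exceeded 3D replicate 2 in 21 genes, 3D replicate 1 in 8 and 3D replicate 3 in 3. 3D replicate 2, the lowest 3D library in 32 genes, was nevertheless above both 2D replicates 2 and 3 in 36 of 38. These counts between single libraries have no share over all tested genes beside them. Of all tested genes, 60.8% had a log2 fold change above 0, so the counts describe the libraries only.

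**Figure D4:**
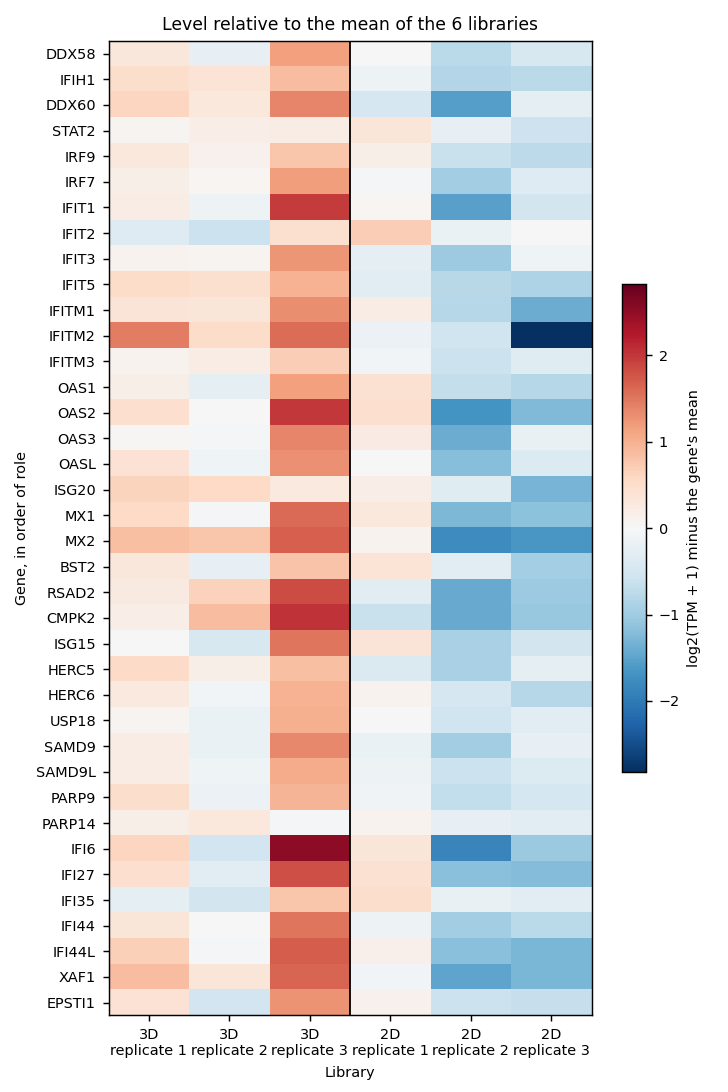
log2(TPM + 1) of each gene minus its mean over the 6 libraries (colour), with the 3D libraries left of the line and the 2D libraries right of it. 3D replicate 3 is the reddest 3D column in 36 rows, and 2D replicates 2 and 3 are blue in most rows, while 2D replicate 1 and 3D replicates 1 and 2 lie nearer the mean in most.

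Other measures of the libraries moved with these differences in part. Transcripts of the mitochondrial genome took 12.3% of the TPM in 3D replicate 3 and 19.4% and 19.4% in 3D replicates 1 and 2. In 2D they took 14.4% in replicate 1, and 15.7% and 17.5% in replicates 2 and 3. The share was thus lowest in the library of each culture where most of the set was highest. With those transcripts left out of the total, 9 of the set were called higher (9.66% of all tested genes). All 6 epithelial markers (EPCAM, CDH1, KRT7, KRT8, KRT18, KRT19) were expressed, with a summed level of 4464 to 8263 TPM in 3D and 7223 to 9624 TPM in 2D. All 6 were highest in replicate 3 within 3D, as were 37.7% of all tested genes. None was highest in replicate 1 within 2D, where 42.3% of all tested genes were. The epithelial list thus moved with the set in 3D only. Between the cultures, KRT7 was called lower in 3D (log2 fold change -0.81, SE 0.19, limma adjusted p = 0.0355), the other 5 did not pass, and the median log2 fold change of the 6 was -0.58. Of 8 leukocyte markers, CD68 and CD14 passed the filter. The summed level was 50.1 to 92.03 TPM in 3D and 71.7 to 99.3 TPM in 2D, nearly all of it CD68. PTPRC, CD3E and MS4A1 were at 0.25 TPM or less everywhere. CSF1R, under the filter, ranged over 1.06 to 1.65 TPM in 3D and 0.28 to 0.88 TPM in 2D. The 4 markers of plasmacytoid dendritic cells, the professional interferon producers, summed to 0.130 to 0.380 TPM in 3D and 0 to 0.0800 TPM in 2D, with CLEC4C and TCL1A listed at 0 throughout. Fibroblast markers summed to 6.99 to 12.1 TPM in 3D and 2.10 to 2.96 TPM in 2D, of which COL1A1 was the 1 of 6 that passed the filter and was called higher (log2 fold change 1.33, SE 0.25, limma adjusted p = 0.0170), and COL3A1 was listed at 0 throughout. LUM, under the filter, ranged over 0.80 to 1.49 TPM in 3D and 0.08 to 0.36 TPM in 2D, and COL1A2, PDGFRB and DCN were at 0.22 TPM or less everywhere. The 4 endothelial markers, all under the filter, summed to 1.51 to 3.98 TPM in 3D and 0.680 to 1.46 TPM in 2D. KDR ranged over 0.64 to 2.5 TPM in 3D and 0.01 to 0.08 TPM in 2D. CDH5 and VWF were also higher in every 3D library than in any 2D library, and PECAM1 overlapped (0.20 to 0.88 TPM in 3D, 0.52 to 1.17 TPM in 2D). The part of the mitochondrial share, the epithelial genes, COL1A1 and the other markers in the results was not tested.

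Upstream of the set, interferon genes were scarcely detected. Of 10 interferon ligands, 1 passed the filter: IFNE, an epithelial type I interferon, with 1.24, 1.83 and 0.51 TPM in the 3D libraries, against 0.8, 1.35 and 0.65 TPM in the 2D libraries, which overlapped (log2 fold change 0.15, SE 0.30, limma adjusted p = 0.763). IFNL1, a type III interferon, followed at 0.21 to 0.69 TPM in 3D and 0 to 0.07 TPM in 2D. IFNB1 was listed at 0.15 TPM or less in every library, and IFNA2, IFNW1 and IFNL3 at 0 in all. All 16 genes of receptors and JAK-STAT signalling were tested, of which 3 were higher, none lower and 13 did not pass (median log2 fold change 0.36). The 3 were IFNGR1, a subunit of the interferon gamma receptor, with 60.1, 64.2 and 45.6 TPM in the 3D libraries, against 19.6, 19.5 and 22.02 TPM in the 2D libraries (log2 fold change 1.42, SE 0.16, limma adjusted p = 0.00321), SOCS1, a feedback inhibitor of JAK kinases (log2 fold change 0.86, SE 0.21, limma adjusted p = 0.0379), and PTPN2, a phosphatase of JAK and STAT proteins (log2 fold change 0.55, SE 0.13, limma adjusted p = 0.0337). Over these and the lists described next, 18 of 68 tested genes were called higher, where 10.2% of all tested genes were. The 18 include AIM2 and CXCL10, which averaged 0.313 and 0.0833 TPM in 2D and passed the filter only through 3D. Leaving out 3D replicate 1, 3D replicate 2, 2D replicate 1 or 2D replicate 2 in turn gave 6 (2.44% of all tested genes), 5 (2.61%), 8 (4.84%), and 5 (2.82%). Without 3D replicate 3 it was 12 (10.7%), and without 2D replicate 3 it was 15 (10.5%).

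Among 18 nucleic acid sensors, adaptors and kinases outside the set, 16 were tested, 5 were higher, 1 was lower and 10 did not pass (median 0.35). Beside this list and the next, 10.2% of all tested genes were called higher and 2.12% lower. AIM2, a sensor of cytosolic DNA, had 2.26, 2.84 and 3.53 TPM in the 3D libraries, against 0.14, 0.19 and 0.61 TPM in the 2D libraries, with no overlap (log2 fold change 1.57, SE 0.25, limma adjusted p = 0.0113). It averaged 0.313 TPM in 2D and passed the filter only through 3D. IFI16, another DNA sensor, had 98.9, 94.6 and 118 TPM in the 3D libraries, against 47.3, 39.4 and 66.1 TPM in the 2D libraries (log2 fold change 1.04, SE 0.20, limma adjusted p = 0.0193), and TICAM1, the adaptor of TLR3, had a log2 fold change of 0.80 (SE 0.15, limma adjusted p = 0.0167). IRF3, the factor that starts interferon transcription after a sensor fires, was the one called lower, with 59.8, 53.3 and 62.8 TPM in the 3D libraries, against 88.3, 79.3 and 87.1 TPM in the 2D libraries (log2 fold change -0.53, SE 0.12, limma adjusted p = 0.0342). Of 28 further interferon-inducible genes, 27 were tested, 5 were higher, none was lower and 22 did not pass (median 0.43). The count called higher was 0 with median ratios (6.46% of all tested genes) and 0 without the filter (2.15%). It was 1 with quantile normalization (5.78%). The largest were APOL1, a trypanosome-lytic apolipoprotein (log2 fold change 1.83, SE 0.47, limma adjusted p = 0.0433), TAP1, a peptide transporter of antigen presentation (log2 fold change 0.94, SE 0.23, limma adjusted p = 0.0393), and APOL6 (log2 fold change 0.79, SE 0.21, limma adjusted p = 0.0466). Within the groups, 23 of 27 were highest in 3D replicate 3, as were 37.7% of all tested genes. In 2D, 23 of 27 were highest in replicate 1, as were 42.3% of all tested genes.

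Among genes that interferon gamma or NF-kB drives more than type I interferon, 3D replicate 3 was rarely the highest library. Of 13 such genes 8 were tested, 5 were higher, none was lower and 3 did not pass (median 1.67). Of all tested genes, 10.2% were called higher and 2.12% lower. Of the 5, CXCL10 passed the filter only through 3D. Of the 8, 1, GBP3, was highest in 3D replicate 3, as were 37.7% of all tested genes. IDO1, a tryptophan-degrading enzyme, had 18.6, 25.6 and 14.5 TPM in the 3D libraries, against 1.37, 1.26 and 1.24 TPM in the 2D libraries. GBP1, a guanylate-binding protein, had 130.02, 95 and 64.1 TPM in the 3D libraries, against 16.7, 14.5 and 23.6 TPM in the 2D libraries, and IRF1, a transcription factor, 144, 99.6 and 114 TPM in the 3D libraries, against 24.7, 19.5 and 33.7 TPM in the 2D libraries. In these 3 genes the 2 cultures stood far apart, and 3D replicate 3 was the lowest or middle 3D library. Their log2 fold changes were 3.13 (SE 0.21, limma adjusted p = 0.000379), 2.31 (SE 0.28, limma adjusted p = 0.00423) and 2.17 (SE 0.22, limma adjusted p = 0.00229). Whether this list and the antiviral set differ was not tested.

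**Figure D5:**
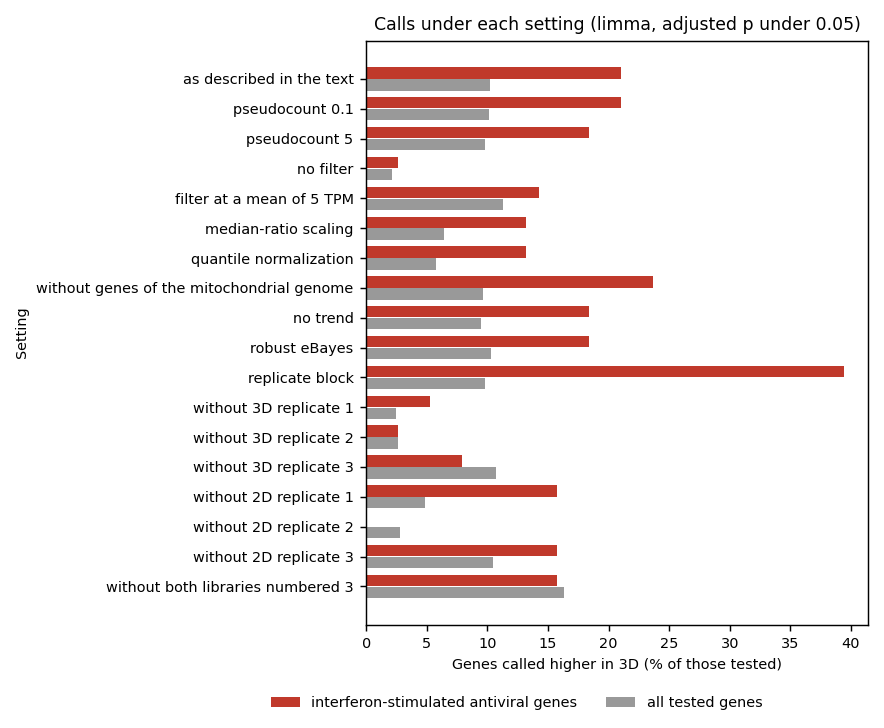
Share of the set (red) and of all tested genes (grey) called higher in 3D under each setting, in percent of the genes tested there. The share of the set runs between 0% without 2D replicate 2 and 39.5% with the replicate number as a block, and it lies below that of all tested genes when 3D replicate 3, 2D replicate 2 or both number 3 libraries are left out.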

How the data were processed

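Poly(A) RNA of total RNA with an integrity number above 9 was made into directional libraries and sequenced as single-end reads of 75 nt, per the labels' protocols. The values are TPM as deposited, 1 column for each library. RSEM 1.3.1, STAR 2.7.0d and cutadapt 2.3 with build hg38 are named, without roles, per the submitters' processing notes. No annotation release or strand setting is given in the sources used here. Depth is unknown, because TPM does not keep it, and counting intervals cannot be given.

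Groups and replicate numbers came from the sample titles. Testing covered genes averaging 1 TPM or more over the 6 libraries, on log2(TPM + 1) with limma 3.58.1 (eBayes with a trend, R 4.3.3), 3D against 2D, two-sided, with Benjamini-Hochberg adjustment over 15042 genes and a threshold of 0.05. Changes of low genes are understated by the pseudocount of 1. An exact test of 3 libraries against 3 cannot go below p = 0.1, so none was run on single genes. The fit was checked on simulated data.

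The members, lists and tests were chosen with earlier results of these data known. Values in every library were given for members that were called or among the 2 most abundant of their role, and ranges for the rest; up to 3 called genes per direction were named per companion list, or the 2 most abundant. IFITM2, IFIT2, ISG20, IFI35, IFNB1 and GBP3 were singled out after their values were seen, as were the libraries 3D replicate 3 and 2D replicate 1. Coordinates and 75-base windows shared with other genes came from GENCODE 29 on GRCh38, and promoters from RefSeq on GRCh38.p14. Of the set, 16 genes overlap a gene on the opposite strand. Alternatives were a pseudocount of 0.1 or of 5, dropping the filter or setting it at 5 TPM, 2 scalings, no mitochondrial genes, eBayes without a trend or robust, a replicate block, and left-out libraries. Figures used matplotlib 3.10.9.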

Additional observations from a re-analysis of the deposited data

How the results depend on the processing

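The direction held more widely than the calls. Across all 17 alternatives 36 or 37 of the tested genes of the set had positive log2 fold changes (34 of 35 at a mean of 5 TPM), and the median log2 fold change lay between 0.64 and 1.22. The count of the set called higher, 8 as reported, was 1 without the filter, 5 with median ratios, 5 with quantile normalization and 0 to 6 with 1 library left out. At a mean of 5 TPM it was 5, since RSAD2, CMPK2 and HERC5 were not tested there and the other 5 kept their calls. None was called lower under any of them. The count of all tested genes called higher, 1536 as reported, was 729 without the filter, 971 with median ratios, 869 with quantile normalization, 367 to 1607 with 1 library left out and 2464 without both libraries numbered 3. Genes called lower, 319 as reported, numbered 86, 612 and 576 in those first 3 settings, 29 to 563 with 1 library left out and 1356 without both numbered 3. The share of calls that were higher was 82.8% as reported, 61.3% with median ratios and 60.1% with quantile normalization. Companion genes called higher, 18 as reported, numbered 7 without the filter, 9 with median ratios, 10 with quantile normalization and 5 to 15 with 1 library left out. Those called lower, 1 as reported, numbered 0 without the filter, with no trend and with the replicate block, 0 to 1 with 1 library left out, and 2 without both libraries numbered 3. For single genes, a call was lost in 158 instances and gained in 24 over all alternatives. The cause of these changes was not tested, except that leaving out a library or the filter changes the number of samples or of genes tested.

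The correlation of deviations did not settle whether the replicate numbers pair the libraries. Both libraries numbered 3 lay on the same side of the second principal component. The correlation over genes of the deviations of same-numbered libraries from their group means was 0.10, 0.0365 and 0.19 for numbers 1 to 3. 3D replicate 3 correlated best with 2D replicate 3, and its values with 2D replicates 1 and 2 were -0.11 and -0.14. 3D replicate 2 had nearly the same value with 2D replicate 1 (0.0307) as with 2D replicate 2. 3D replicate 1 correlated best with 2D replicate 2 (0.13). With the replicate number as a block, 15 of the set were called higher and 1479 of all tested genes were. Unknown depth limits what can be said of RSAD2, CMPK2 and the interferon ligands, whose values in 2D fell near or under 1 TPM.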
